A study of Mus musculus with 6 samples.

Results

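The genes described here are 9 transcription regulators of spermatogonial self-renewal and their close relatives: *Zbtb16*, *Sall4*, *Sall1*, *Taf4b*, *Foxo1*, *Foxo3*, *Foxo4*, *Foxc1* and *Foxc2*. They were chosen by name from the 53657 gene names that were counted, not by their measured values. Earlier results of these data were known when they were chosen. All 9 passed the filter on low counts that left 19656 genes for testing. RNA was sequenced from undifferentiated spermatogonia (Aundiff) of 6 adult mice, 3 WT and 3 MUT. Both groups carried *Gfra1-creERT2* and *tdTom fl/-*, so that tamoxifen switched on the red fluorescent protein tdTomato in cells in which the *Gfra1* promoter was active and in their descendants. The MUT mice also carried *FR-Hras G12V fl/-*, a flox-and-replace allele in which the same recombination exchanges wild-type *Hras* for *Hras G12V* under its own promoter, leaving the cells heterozygous. All mice received repeated courses of tamoxifen, and tdTomato+ cells bright for the surface protein MCAM were sorted 3 months later. The controls of the study were littermates on a mixed background, and which mice were siblings is not given in the sources used here. The question was whether the activated *Hras* allele changed the transcripts of these regulators in the stem and progenitor pool that it had occupied for months.

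Aundiff are the germ cells that hold the stem cells of the testis, and a small network of DNA-binding proteins keeps them from differentiating. *Zbtb16* encodes PLZF, a BTB zinc finger repressor without which the stem cells are lost with age. PLZF binds *Kit* and recruits the NCoR and histone deacetylase corepressors. *Sall4* encodes a spalt zinc finger protein that binds PLZF, pulls it away from its targets and recruits the NuRD deacetylase complex, and *Sall1* is a relative that shares the NuRD-binding motif. *Taf4b* encodes a TFIID subunit enriched in germ cells and required for the long-term upkeep of spermatogenesis. FOXO proteins carry the PI3K-AKT signal: phosphorylation by AKT sends them out of the nucleus, and FOXO1 is the member on which mouse spermatogonial stem cells most depend. *Foxc2* encodes a forkhead factor that marks a quiescent subset of Aundiff, and *Foxc1* is its close paralogue.

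Several of these genes are paralogues, and their identical stretches let a reader judge whether 50-base reads can tell the members apart. The longest identical stretch, coding in each case, is shown for *Foxc1* with *Foxc2*, *Foxo1* with *Foxo3*, and *Sall1* with *Sall4*. Each sequence is read 5′ to 3′ on the coding strand from GRCm38 with GENCODE vM21 transcripts. The identical stretch is in capitals, with 15 flanking bases on either side in lower case.
Foxc1, exon 1 of 1, chr13:31807631-31807713, plus strand: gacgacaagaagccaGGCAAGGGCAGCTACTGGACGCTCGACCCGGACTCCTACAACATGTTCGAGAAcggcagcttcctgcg
Foxc2, exon 1 of 1, chr8:121117017-121117099, plus strand: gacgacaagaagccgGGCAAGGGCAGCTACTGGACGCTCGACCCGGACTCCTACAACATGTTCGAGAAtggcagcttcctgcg
Foxo1, across the junction of exons 1 and 2 of 3, chromosome 3, 52269357 to 52345040, plus strand: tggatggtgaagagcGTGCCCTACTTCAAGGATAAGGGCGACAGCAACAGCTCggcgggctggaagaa
Foxo3, across the junction of exons 2 and 3 of 4, chromosome 10, 42274881 to 42197900, minus strand: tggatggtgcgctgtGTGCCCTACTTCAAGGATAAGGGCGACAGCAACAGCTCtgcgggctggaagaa
Sall1, exon 3 of 4, chr8:89030004-89030054, minus strand: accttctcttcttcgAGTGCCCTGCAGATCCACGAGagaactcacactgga
Sall4, exon 3 of 4, chr2:168752514-168752564, minus strand: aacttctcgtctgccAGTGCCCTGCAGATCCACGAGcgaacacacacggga

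The *Foxc1* and *Foxc2* stretch is 53 bases long and holds 4 windows as long as a read, so a single read placed there could come from either gene, although its mate would usually lie outside. Fragments that aligned to several places were left out of the counts, which would undercount both genes at that place. The identical stretch of *Foxo1* and *Foxo3* is 38 bases and that of *Sall1* and *Sall4* is 21 bases, both shorter than a read. *Foxo4* shares at most 17 bases with *Foxo1* and 20 with *Foxo3*. Apart from the FoxC stretch, no pair had an identical window of read length in its transcripts.

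Each library held between 22729292 and 23550433 counts, so depth differed little and 3 counts corresponded to 0.127 to 0.132 CPM, which are counts scaled to a fixed library size. CPM values below are normalized by the TMM method, and values of single libraries are given in the order of replicates 1, 2 and 3. *Hras* had 1300, 1407 and 1542 counts across WT and 1600, 1594 and 1426 across MUT, and counts over the whole gene do not separate its alleles. WT replicate 3 stood apart, with a mean Spearman correlation of 0.980 with the other libraries against 0.987 to 0.991 for the rest. Among genes over 10 CPM its level relative to the other WT libraries had a median log2 difference of 0.21 for exon lengths under 2 kb and of -0.11 for those over 4 kb. The summed level of 13 markers of undifferentiated spermatogonia was 1719 to 2035 CPM in WT and 1752 to 2107 CPM in MUT. Macrophage markers summed to 627 to 922 CPM in WT and 528 to 699 CPM in MUT, and Sertoli, Leydig, myoid and endothelial lists each reached at most 67.3 CPM in any library. B and plasma cell markers summed to 51.0 to 133 CPM in WT and 26.5 to 56.2 CPM in MUT, and meiotic markers to 477 to 768 CPM in WT and 591 to 607 CPM in MUT. Spermatid markers summed to 869 to 1476 CPM in WT and 601 to 1147 CPM in MUT, although the gate was for MCAM-bright cells. The source of these transcripts was not tested. In such bulk samples, fewer cells of a type and less RNA per cell cannot be told apart.

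At an FDR of 0.1, none of the 9 genes was called between MUT and WT by the quasi-likelihood test of edgeR, adjusted by Benjamini-Hochberg over all genes tested, where 0.0102% of the tested genes were called. At an unadjusted p under 0.05 the same test picked out 1 of the 9, *Foxc2*, against 2.78% of all tested genes. *Foxc2* was also the only member whose groups did not overlap: every MUT library lay below every WT library, as in 3.00% of tested genes. None of the 9 had every MUT library above every WT library, as 4.69% of tested genes did. The log2 fold changes, MUT over WT, were above 0 for 7 members and below 0 for *Foxo4* and *Foxc2*. Of the 19656 tested genes, 10191 were above 0. Those of *Zbtb16*, *Sall1*, *Foxo1* and *Foxo3* fell below 0 when WT replicate 3 was left out. The median over the 9 genes was 0.066, beside 0.0066 over all tested genes.

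**Figure D1:**
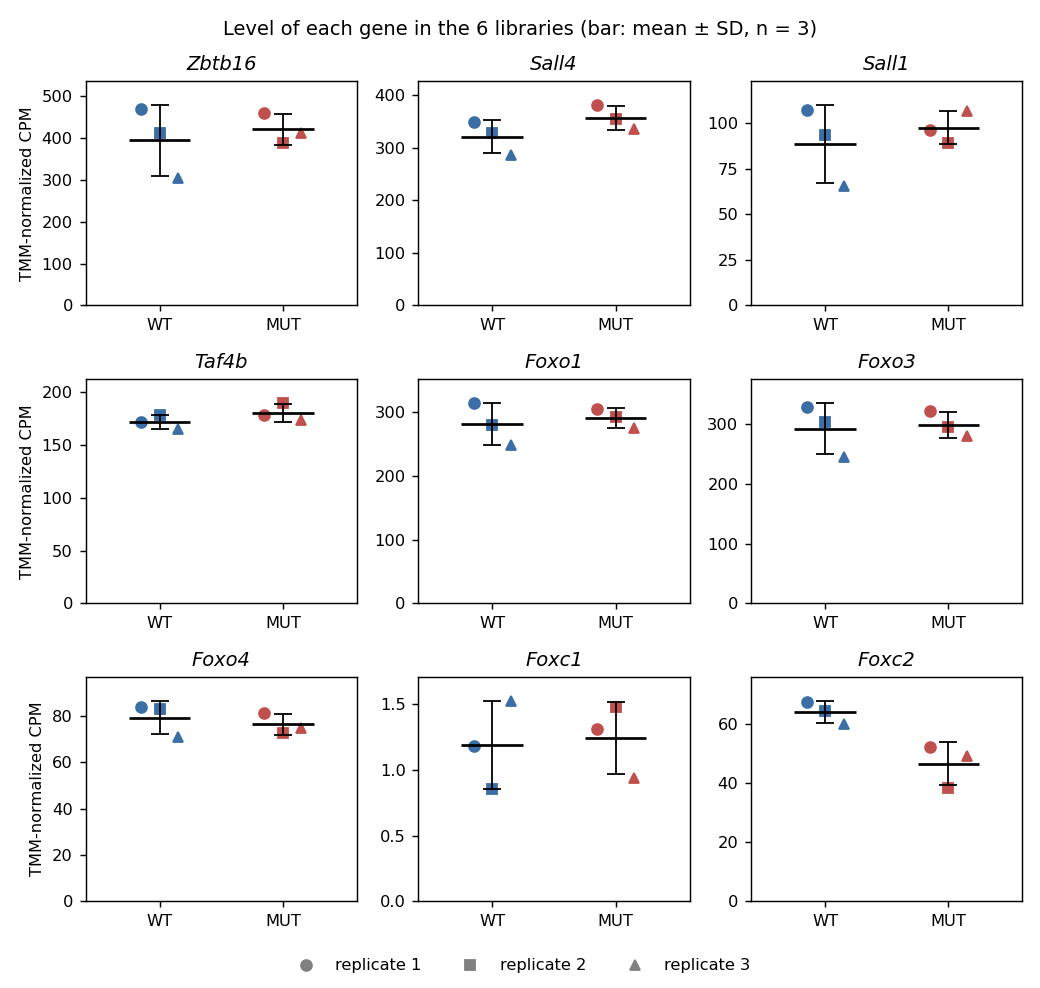
TMM-normalized CPM (vertical axes, each starting at 0) of the 9 genes in each WT and MUT library, with the replicate number as the symbol and the mean ± SD (n = 3) as bars. WT and MUT overlapped in 8 of the panels; in the *Foxc2* panel the highest MUT library, at 52.2 CPM, lay below the lowest WT library, at 60.1 CPM.

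*Zbtb16* spans 48654297 to 48836222 on the minus strand of chromosome 9 (GRCm38). Its level was 469, 411 and 303 CPM across WT and 460.2, 388 and 413 CPM across MUT. The lowest library and the highest were both WT, so the MUT values lay within the WT range. The means were 394 ± 84.2 CPM in WT and 420.4 ± 36.6 CPM in MUT (SD, n = 3). The log2 fold change was 0.09 (standard error 0.15, 95% confidence interval -0.25 to 0.44), which as a fold runs from 0.840 to 1.35 (Benjamini-Hochberg adjusted p = 0.998 by the quasi-likelihood test of edgeR). WT replicate 3 set the direction of this small difference: without it the log2 fold change was -0.07.

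*Sall4*, at chromosome 2, 168748332 to 168767943, minus strand, had 349, 328 and 286 CPM across WT and 381, 354 and 336 CPM across MUT. WT and MUT overlapped, since MUT replicate 3 lay below WT replicate 1. The log2 fold change was 0.15 (standard error 0.09), with an interval from -0.06 to 0.37, and the adjusted p of edgeR was 0.998 (unadjusted p = 0.138). An exact two-sided permutation test over the 20 assignments of the libraries gave p = 0.2, where the smallest possible value is 0.1. A stretch of 290 bases of *Sall4* exon overlaps an antisense gene, and fragments there were left out because the counting did not use strand. That gene had 13 to 30 counts per library, against at least 6773 for *Sall4*. Both counts leave out the shared stretch, so they do not show how many *Sall4* fragments were lost there.

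*Sall1*, at chromosome 8, 89027235 to 89044162, minus strand, had 107, 93.2 and 65.4 CPM in WT and 96.3, 88.8 and 107 CPM in MUT. Its WT spread was the second widest of the 9 genes, with a coefficient of variation of 24.0%, against 9.29% in MUT. The lowest value was that of WT replicate 3. The log2 fold change of 0.14 had an interval from -0.24 to 0.51 and became -0.04 without WT replicate 3.

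*Taf4b* was the steadiest of the 9. It lies at chromosome 18, 14783245 to 14900359, plus strand. Its level was 172, 179 and 166 CPM across WT and 178, 189.9 and 173 CPM across MUT, with coefficients of variation of 3.86% and 4.70%. The groups overlapped, with MUT replicate 2 the highest library. The log2 fold change was 0.07 (standard error 0.07), and its interval of -0.09 to 0.23 corresponds to folds from 0.942 to 1.17, the narrowest of the 9 genes.

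None of the FOXO genes differed beyond the spread between libraries. *Foxo1*, at chromosome 3, 52268336 to 52353221, plus strand, had 314, 280.0 and 249 CPM in WT and 304, 292 and 274 CPM in MUT. *Foxo3*, at chromosome 10, 42181841 to 42276755, minus strand, had 329, 304 and 245 CPM in WT and 323, 295 and 280.2 CPM in MUT. *Foxo4*, at chromosome X, 101254528 to 101260873, plus strand, had 83.6, 83.0 and 71.0 CPM in WT and 81.3, 72.7 and 74.8 CPM in MUT. For all 3 genes WT replicate 3 was the lowest library, WT replicate 1 the highest, and the MUT libraries lay in between. The log2 fold changes were 0.05 for *Foxo1* (95% interval -0.17 to 0.27), 0.03 for *Foxo3* (-0.23 to 0.29) and -0.05 for *Foxo4* (-0.25 to 0.14). Without WT replicate 3 those of *Foxo1* and *Foxo3* turned to -0.03 and -0.08. These intervals concern transcript levels only, and where the FOXO proteins were in the cell was not measured. *Foxo1* overlaps an antisense gene over 589 bases, which had 0 counts in every library. Fragments in that stretch were left out for both genes, so the 0 does not show how many *Foxo1* fragments were lost.

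*Foxc2* differed most. This gene of a single exon lies at chromosome 8, 121116171 to 121118895, plus strand, and it had 1546, 1511 and 1423 counts across WT and 1195, 883 and 1154 counts across MUT. In CPM these were 67.6, 64.6 and 60.1 in WT and 52.2, 38.3 and 49.3 in MUT. The lowest library was MUT replicate 2, and all 3 MUT libraries lay under the WT range. The means were 64.1 ± 3.73 CPM in WT and 46.6 ± 7.35 CPM in MUT (SD, n = 3), a MUT level 0.727 times that of WT with a 95% interval of 0.606 to 0.873. The log2 fold change was -0.46 (standard error 0.12), and the edgeR test gave an unadjusted p of 0.00365 and an adjusted p of 0.998. The exact two-sided permutation test gave p = 0.1, the smallest it can give with 3 libraries against 3.

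The call on *Foxc2* depended on whether the replicate number was used as a block and on the tool. With the replicate number as a block its log2 fold change was -0.47 in both tools. The adjusted p was 0.228 in edgeR, which called 0.0661% of tested genes with the block. It was 0.0921 in DESeq2 with the block, which called 0.323% of the 17045 genes that its own filter on low counts left with an adjusted p. Only the DESeq2 fit with the block passed the FDR of 0.1. DESeq2 without the block gave *Foxc2* an adjusted p of 1 and called 0.0241% of genes, there among 37271 with an adjusted p, so the adjustments with and without the block were over sets of unlike size. When each library was left out in turn, the log2 fold change ranged from -0.56 to -0.35, and the value nearest 0 came without MUT replicate 2. The summed level of 6 markers of differentiating spermatogonia was higher in every MUT library than in any WT library. It was 764, 828 and 780 CPM across WT and 877, 1020 and 848 CPM across MUT. Such a separation was seen for 4.69% of single tested genes, which is not a rate for sums of several genes. *Kit*, 1 of the 6, overlapped between the groups, and the other markers of the list are not given singly. MUT replicate 2, the lowest for *Foxc2*, was the highest for this sum, but MUT replicate 1 exceeded MUT replicate 3 in both. In WT, replicate 1 was the highest for *Foxc2* and the lowest for the sum, whereas replicate 3, the lowest for *Foxc2*, was not the highest for the sum. None of those 6 markers was under 1 CPM in all libraries, and their part in the *Foxc2* difference was not tested. The same holds for the B and plasma cell markers given above, whose range was lower in MUT but overlapped that of WT.

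*Foxc1*, at chromosome 13, 31806633 to 31812476, plus strand, was near the lower limit of the data. It had 27, 20 and 36 counts in WT and 30, 34 and 22 in MUT, which is between 0.855 and 1.52 CPM. The groups overlapped fully. Its log2 fold change of 0.07 had an interval from -0.61 to 0.74, which as a fold runs from 0.655 to 1.67.

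**Figure D2:**
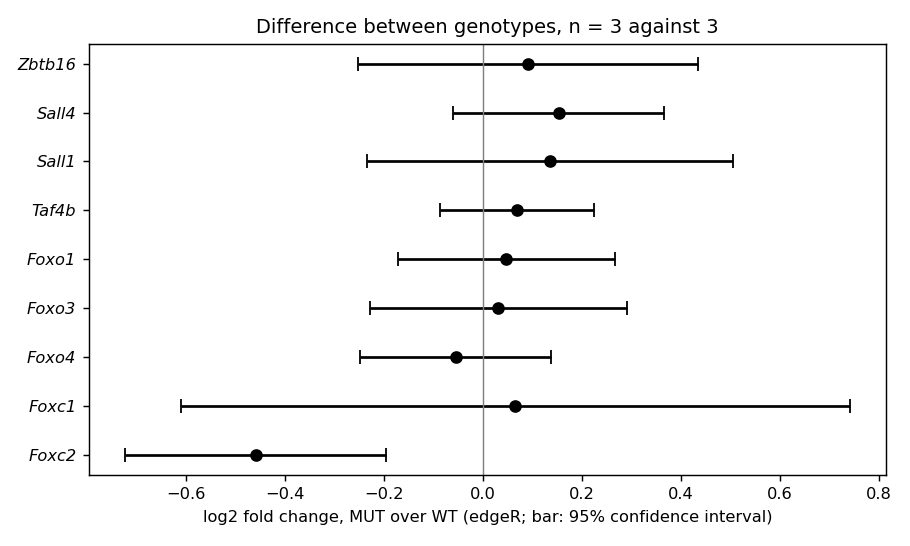
Log2 fold change of MUT over WT (horizontal axis) for the 9 genes by edgeR, with 95% confidence intervals as bars, from 3 WT and 3 MUT libraries. The interval of *Foxc2*, from -0.72 to -0.20, is the only one that leaves out 0, without adjustment for the number of genes tested, and that of *Foxc1* is the widest.

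Levels were compared between genes per kilobase of counted exon. Over the 6 libraries *Zbtb16* was the highest, at 77.1 ± 11.3 CPM per kb (SD, n = 6), a level above that of 97.8% of tested genes. *Sall4* followed at 61.2 ± 5.71 CPM per kb. The ranges of this pair overlapped, although *Zbtb16* was the higher in 6 of 6 libraries. The next group held *Foxo3* at 39.1 ± 4.04, *Taf4b* at 34.2 ± 1.6 and *Foxo1* at 33.0 ± 2.68 CPM per kb, none of which reached the *Sall4* range. *Foxo3* exceeded *Taf4b* in 6 of 6 libraries, whereas *Taf4b* exceeded *Foxo1* in only 4 of 6. The lengths used include the 589 bases of *Foxo1* and 290 of *Sall4* where fragments were left out, which lowers their levels per kb. The order of *Taf4b* and *Foxo1* is therefore not settled. *Foxo4* at 22.3 ± 1.59, *Foxc2* at 20.3 ± 4.0 and *Sall1* at 17.7 ± 2.92 CPM per kb formed a lower group. The range of *Foxc2* overlapped those of *Foxo4* and *Sall1*. The lowest *Foxo4* value, 20.37 CPM per kb, lay just above the highest of *Sall1*, 20.35. *Foxc1*, at 0.208 ± 0.047 CPM per kb, was separate from all of them, and 4.97% of tested genes had a lower level.

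The place of *Foxc2* in that order differed between the groups. In WT it had 24.8, 23.7 and 22.1 CPM per kb and was above *Sall1* in every library, and its mean of 23.5 CPM per kb was next to the 22.7 of *Foxo4*. In MUT it had 19.2, 14.1 and 18.1 CPM per kb, below *Foxo4* in every library, and its mean of 17.1 was next to the 18.5 of *Sall1*. The change of place was not tested apart from the fold change of *Foxc2* itself.

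**Figure D3:**
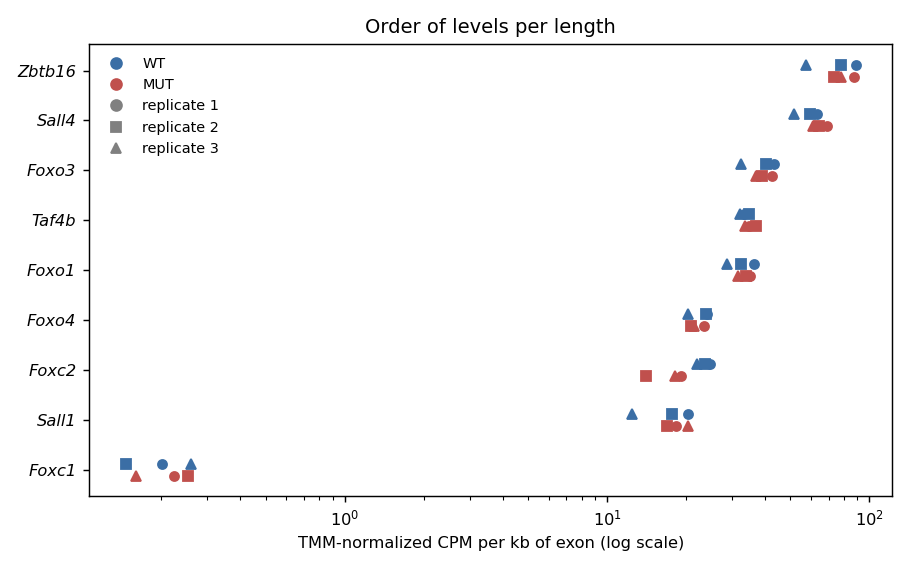
TMM-normalized CPM per kilobase of exon (horizontal log axis) of each gene in every library, with color for the genotype and symbol for the replicate number. *Zbtb16* and *Sall4* lie highest, *Foxc1* at 0.146 to 0.260 CPM per kb lies far below the rest, and the *Foxc2* values of MUT lie to the left of those of WT.

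Ratios between partners within a library do not depend on scaling. The counts of *Zbtb16* over those of *Sall4*, whose proteins oppose each other, were 1.34, 1.25 and 1.06 across WT and 1.21, 1.10 and 1.23 across MUT. The WT values enclosed those of MUT, with WT replicate 3 the lowest, and the mean log2 ratio differed by -0.04 between MUT and WT (p = 0.7 by a two-sided exact permutation test). The ratio of *Foxo1* to *Foxo3* was nearly constant, from 0.920 to 1.01 over the 6 libraries, with a log2 difference of 0.01 between MUT and WT (exact permutation p = 0.8). *Foxc2* had 39.5 to 75.6 counts for each *Foxc1* count in WT and 26.0 to 52.5 in MUT, a log2 difference of -0.55 in groups that overlapped (exact permutation p = 0.3). Without MUT replicate 2 this difference was -0.28, and without WT replicate 3 it was -0.80. Counting error in *Foxc1* enters every one of these last values. Adjusted over the 3 ratios, each p was 0.8.

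**Figure D4:**
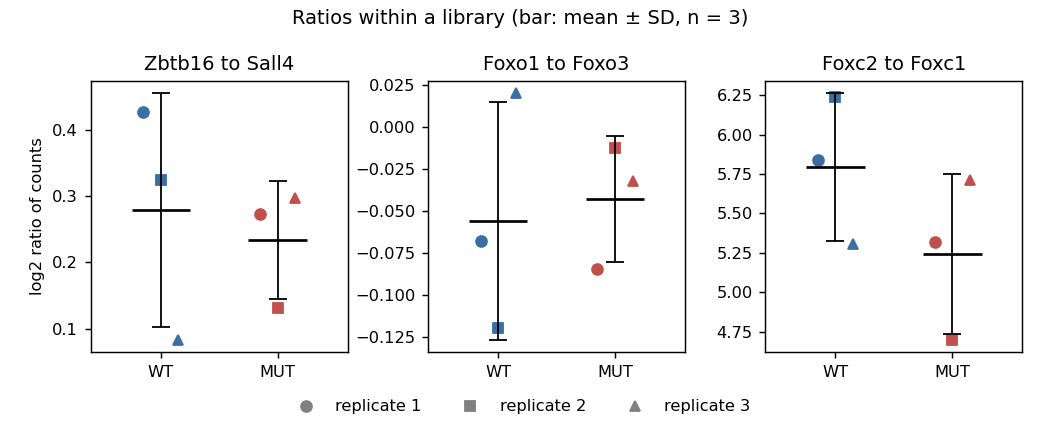
Log2 ratio of counts (vertical axes, a different range in each panel) of 3 gene pairs in each WT and MUT library, with mean ± SD (n = 3). WT and MUT overlap in each panel; the axis of *Foxo1* to *Foxo3* covers a much smaller range than the others.

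The members varied together to different degrees over the 6 libraries, which are of similar depth. *Foxo1* and *Foxo3* were closest, with a Pearson correlation of log2 CPM of 0.96. *Zbtb16* had 0.95 with *Foxo3*, 0.92 with *Sall1*, 0.91 with *Foxo1* and 0.87 with *Sall4*. *Foxc2* had 0.08 with *Zbtb16* and -0.71 with *Taf4b*. These are descriptions over 6 libraries from both groups, and WT replicate 3 was the lowest library for each of *Zbtb16*, *Sall4*, *Sall1*, *Foxo1* and *Foxo3*.

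In WT replicate 3, *Sall1* was at 0.655 times and *Zbtb16* at 0.691 times the mean of the other WT libraries, taken on the log2 scale. The level was 0.776 times for *Foxo3*, 0.839 times for *Foxo1*, 0.846 times for *Sall4* and 0.852 times for *Foxo4*. *Foxc2* and *Taf4b*, at 0.911 and 0.946 times, were less affected, and the low-count gene *Foxc1* was higher in it. Of 6223 genes over 10 CPM with exons over 4 kb, 4.97% had a log2 difference below that of *Zbtb16* in this library and 2.65% one below that of *Sall1*. The part of exon length in the differences of single genes was not tested separately. With a correction for exon length, none of the 9 genes was called and none changed the sign of its log2 fold change.

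**Figure D5:**
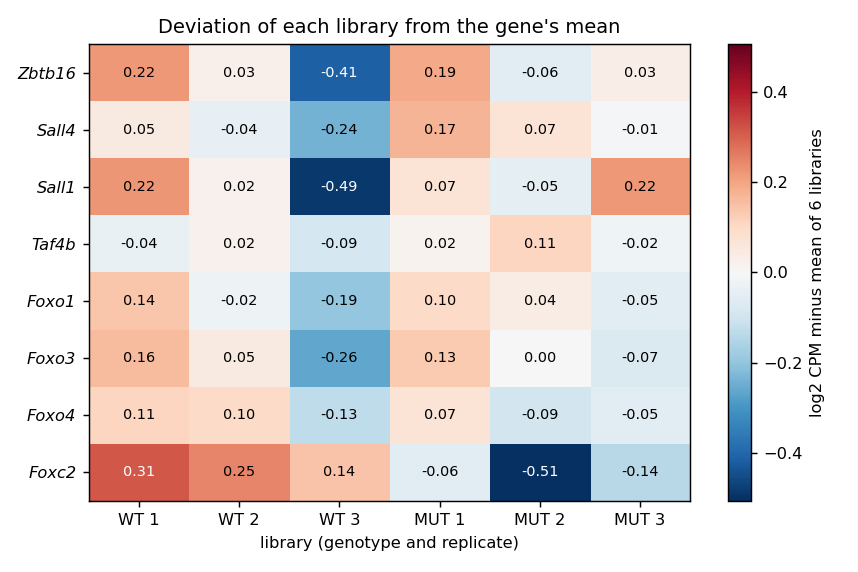
Log2 CPM of each gene in each library minus the mean over its 6 libraries, as color and printed value, for the 8 genes other than the low-count *Foxc1*. WT replicate 3 is lowest for 7 of the genes, and for *Foxc2* MUT replicate 2, at -0.51, is lowest and the WT libraries are above 0.

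The genes whose pattern over the 6 libraries was most like that of *Zbtb16*, among 10583 genes over 10 CPM, were *Hivep2*, *Lonrf2*, *Tef*, *Zfp462* and *Mkl2*, with Pearson correlations of 0.993 to 0.997. Those most like *Sall4* were *Dhx35*, *Oxsr1*, *Igf2bp2*, *Crybg2* and *Agap3*, at 0.991 to 0.996. Correlations over 0.9 were common, with 857 genes for *Zbtb16* and 476 for *Sall4*.

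None of the paralogues of the members differed beyond the spread between libraries. The spalt genes *Sall2* and *Sall3* had means of 2.46 ± 0.218 and 23.8 ± 2.74 CPM in WT and 2.62 ± 0.295 and 25.2 ± 3.27 CPM in MUT (SD, n = 3). *Foxo6* had 42.2 ± 4.42 CPM in WT and 38.8 ± 5.31 CPM in MUT, with a log2 fold change of -0.12 (standard error 0.12). *Taf4*, the paralogue of *Taf4b* that all cells use, had 81.2 ± 1.30 CPM in WT and 83.6 ± 6.79 CPM in MUT. With a pair of further BTB repressor genes, 0 of the 6 tested paralogues were called by edgeR and 0 had an unadjusted p under 0.05, and their median log2 fold change was 0.06.

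None of the genes listed for the complexes that these regulators work with was called either. For TFIID, 0 of 16 tested genes were called and the median log2 fold change was 0.04, from 0.13 for *Taf6* down to -0.11 for *Taf7*. For the NuRD complex, bound by SALL4 and SALL1, it was 0 of 13 with a median of 0.03, from 0.19 for the remodeler *Chd3* to -0.10 for the methyl-CpG-binding *Mbd2*. For the NCoR, SIN3 and deacetylase corepressors of PLZF it was 0 of 12 with a median of 0.05. The class II deacetylase *Hdac5* had the highest log2 fold change there, 0.14, and the NCoR subunit gene *Tbl1xr1* the lowest, -0.05. No gene of these 3 lists had an unadjusted p under 0.05.

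Of 20 genes that control FOXO proteins, including PI3K subunits and the AKT and SGK kinases, 10 had a log2 fold change above 0 and 10 below, with a median of 0.0045. The kinase gene *Akt1* was at the upper end with 3634, 3455 and 3552 counts in WT and 3782, 4030 and 3727 in MUT. All its MUT libraries lay above the WT range, as in 4.69% of tested genes, and its log2 fold change by edgeR was 0.13 ± 0.07 (standard error) with an adjusted p of 0.998. *Sgk3*, another kinase gene of this pathway, was at the lower end at -0.07. Of 20 genes known as FOXO targets in various tissues, 18 could be tested, 0 were called and 1 had an unadjusted p under 0.05. The median log2 fold change was 0.04, and the ends were *Pck1*, an enzyme of gluconeogenesis, at 0.60 from only 19 to 46 counts per library, and the cell cycle inhibitor *Cdkn1a* at -0.26. The target past an unadjusted p of 0.05 was the cyclin gene *Ccng2*, named here because it was the only such gene, with a log2 fold change of -0.19 (unadjusted p = 0.0448, adjusted p = 0.998 by edgeR).

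Of 8 genes described downstream of PLZF, SALL4 or FOXO1 in spermatogonia, 0 were called by edgeR and 2 had an unadjusted p under 0.05, which 2.78% of all tested genes had. *Kit*, the receptor of differentiating spermatogonia that PLZF represses, had 3106, 3873 and 2924 counts across WT and 3556, 5216 and 3832 across MUT. WT and MUT overlapped, since MUT replicate 1 lay below WT replicate 2. The edgeR estimate on the log2 scale was 0.36 ± 0.16 (standard error), with an unadjusted p of 0.0497 and an adjusted p of 0.998. *Egr2*, a transcription factor gene, had 2611, 2700 and 2480 counts in WT and 2303, 2169 and 1803 in MUT. Every MUT library lay below every WT library, as in 3.00% of tested genes, and the edgeR estimate was -0.30 ± 0.10 (log2 scale, standard error) with an unadjusted p of 0.0173 and an adjusted p of 0.998. *Ret*, the GDNF co-receptor, *Lhx1* and *Ddit4*, an inhibitor of mTORC1 that PLZF activates, had log2 fold changes of -0.14, -0.28 and -0.07. Over all lists 91 genes were tested, 0 were called by edgeR or by DESeq2, 3 had an unadjusted p under 0.05 (2.78% of all tested genes did), and the median log2 fold change was 0.03.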

How the data were processed

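RNA-seq libraries were made by the authors with the TruSeq Stranded mRNA kit from sorted cells of 3 WT and 3 MUT mice and sequenced with paired 50-base reads. The deposited values of the authors are unnormalized counts, given for each gene name beside its summed exon length and made with featureCounts 1.6.2 on GENCODE vM17 with tdTomato added. Per the file headers the counting did not use strand and left out fragments that mapped to several places or overlapped several genes. The submitters' processing notes name FastQC, STAR and the build GRCm38.p6. No replicates were pooled. The groups were taken from the sample labels.

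The counts were joined by gene name. In R 4.3.3, edgeR 4.0.16 with filterByExpr kept 19656 of 53657 genes, and TMM normalization and the quasi-likelihood test were applied to all 6 libraries with genotype as the only term, with Benjamini-Hochberg adjustment at an FDR of 0.1. Confidence intervals are for 95%. Log2 CPM used a prior count of 2. Ratios were compared with exact permutation tests in Python 3.11.15 with scipy 1.17.1. The scripts were tested on simulated counts. Intervals and limits cover biological and counting spread of these libraries only, and PCR duplicates were not separable.

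Counts of replicates differed beyond sampling noise (chi-square divided by its degrees of freedom, 4.26 to 24.5), so none was counted as a repeat. Libraries with the same replicate number deviated together from their group means (correlations of 0.30, 0.16 and 0.40 over 10583 genes over 10 CPM). Among unlike numbers, WT 2 with MUT 1 had 0.33, above both the first and second of these. Because each same-number value was over 0.1, the number, which comes from the sample labels, was used as a pairing in the blocked fits. These correlations do not by themselves settle that pairing, and the main test and the permutation tests given above did not use it. Blocked values are given where they change a call.

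The alternatives were DESeq2 1.42.0, voom of limma 3.58.1, DESeq2 size factors in edgeR, no filter, at least 10 counts in every library, an FDR of 0.05, a replicate block in either edgeR or DESeq2, and leaving out each library. A correction for exon length, with and without the block, was chosen after seeing the data. The 9 genes and the lists were chosen with earlier results of these data known. The genes named are the 9, *Sall2*, *Sall3*, *Foxo6*, *Taf4*, *Kit*, *Ddit4*, *Ret*, *Lhx1*, each list's called genes and its highest and lowest log2 fold change, and the 5 genes most correlated with *Zbtb16* and with *Sall4*. *Ccng2* was added after its value was seen. Of 94 listed names 93 were found, the other being an older name of *Taf4*.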

Additional observations from a re-analysis of the deposited data

How the results depend on the processing

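Under the alternatives other than leaving out a library, all 9 log2 fold changes kept their sign, and *Foxc2* stayed between -0.47 and -0.44. The count of the 9 genes called was 0 in every fit except DESeq2 with the replicate block, where it was 1, *Foxc2*. The replicate block changed no other call among the 9 genes or the lists. Over all genes, 2 were called, beside 9 with DESeq2, 4 with voom, 5 with no filter, 0 with at least 10 counts in every library (479 at an unadjusted p under 0.05 in edgeR), 1 at an FDR of 0.05, 13 under the replicate block of edgeR, 55 under that of DESeq2, and 7 when exon length was corrected along with the block. Leaving out 1 library gave 0 to 6 over all genes. The cause of these differences was not tested.

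Without WT replicate 3 the log2 fold changes of *Zbtb16*, *Sall1*, *Foxo1* and *Foxo3* were -0.066, -0.042, -0.033 and -0.081. That of *Foxo3* was -0.03 without MUT replicate 1, and that of *Foxc1* was -0.13 without WT replicate 2 and -0.09 without MUT replicate 2. Over all libraries left out in turn, they ranged from -0.07 to 0.23 for *Zbtb16*, 0.08 to 0.21 for *Sall4*, -0.04 to 0.29 for *Sall1*, 0.02 to 0.10 for *Taf4b*, -0.03 to 0.13 for *Foxo1*, -0.08 to 0.11 for *Foxo3*, -0.13 to -0.02 for *Foxo4*, -0.13 to 0.29 for *Foxc1* and -0.56 to -0.35 for *Foxc2*. The log2 difference of the *Zbtb16* to *Sall4* ratio ranged from -0.14 without WT replicate 3 to 0.030 without WT replicate 1, and was 0.0065 without MUT replicate 2, and that of *Foxo1* to *Foxo3* ranged from -0.019 without WT replicate 2 to 0.051 without WT replicate 3, and was -0.0024 without MUT replicate 2. That of *Foxc2* to *Foxc1* ranged from -0.80 without WT replicate 3 to -0.28 without MUT replicate 2.

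With 3 libraries a group, the 95% intervals of the 7 genes outside the FoxC pair lay between folds of 0.840 and 1.42. They are not limits of detection, since *Foxc2*, with an interval of 0.606 to 0.873, was not called either. The 20 to 36 counts of *Foxc1* limit its precision.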
